A study of Mus musculus with 35 samples.

Results

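The classical cadherins described here are 10 genes of the 30723 gene symbols in the tables, taken by name: Cdh1, Cdh2, Cdh3, Cdh4, Cdh6, Cdh7, Cdh8, Cdh10, Cdh11 and Cdh20. RNA came from wild-type CD1 mouse embryos at embryonic day 11.5, in 35 libraries of 6 dissected tissues, and each library was a pool of several embryos. The neural tissues were dorsal brain (dB, 6 libraries) and ventral brain (vB, 6), which the sample labels call neural tube. The facial tissues were the frontonasal prominence (FNP, 6), the mandibular prominence (MNP, 6) and the maxillary prominence (MXP, 5), and limb (6) was the remaining tissue. All groups shared genotype, strain and age, so the comparisons ask how cadherin transcripts differ between tissues and between neural, facial and limb categories. Levels are FPKM, fragment counts scaled to transcript length and library depth, summed per gene over the 25 transcripts of the 10 genes.

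Classical cadherins are single-pass membrane proteins that hold neighbouring cells together by calcium-dependent binding of their outer repeats, while their cytoplasmic tails bind catenins that link them to actin. Cells with different cadherins tend to sort apart, and in embryos E-cadherin marks epithelia, N-cadherin marks the neural tube, and cadherin-11 marks much mesenchyme. Type I members carry the histidine-alanine-valine motif in the first repeat and are Cdh1 (E-cadherin), Cdh2 (N-cadherin), Cdh3 (P-cadherin) and Cdh4 (R-cadherin). The type II members here are Cdh6, Cdh7, Cdh8, Cdh10, Cdh11 and Cdh20.

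In mm10, by its GENCODE annotation, Cdh3 (chr8:106510891-106557297) and Cdh1 (chr8:106603351-106670246) lie in tandem on the plus strand, 46.1 kb apart, and Cdh8 (chr8:99024471-99416471) and Cdh11 (chr8:102632095-102785642) lie on the minus strand of the same chromosome. Cdh20 (chr1:104768529-104995481) and Cdh7 (chr1:109982431-110140157) are on the plus strand of chromosome 1. Cdh6 (chr15:13028701-13173675, minus strand) and Cdh10 (chr15:18818947-19014236, plus strand) share chromosome 15, and Cdh4 (chr2:179442431-179899373, plus strand) is on chromosome 2.

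The RefSeq promoter table (GRCm38.p6) held windows for 5 members, Cdh6, Cdh7, Cdh8, Cdh10 and Cdh20. Shown are the 250 bases before the start for Cdh8 and Cdh20, the type II genes with the clearest neural pattern, and for Cdh6, which had its highest levels in the face. The windows are chr8:99416472-99416721 (minus strand) for Cdh8, chr1:104768270-104768519 (plus strand) for Cdh20 and chr15:13173676-13173925 (minus strand) for Cdh6. The Cdh20 start lies 299 bases from the start of its measured transcript. For Cdh8 and Cdh6 the nearest measured transcript starts 14 and 36 bases away. Capitals mark matches on either strand to the CCAAT box (CCAAT), the GC box (GGGCGG), an E-box that Snail and Zeb proteins bind (CAGGTG) and a homeodomain core (TAATTG).
Cdh8: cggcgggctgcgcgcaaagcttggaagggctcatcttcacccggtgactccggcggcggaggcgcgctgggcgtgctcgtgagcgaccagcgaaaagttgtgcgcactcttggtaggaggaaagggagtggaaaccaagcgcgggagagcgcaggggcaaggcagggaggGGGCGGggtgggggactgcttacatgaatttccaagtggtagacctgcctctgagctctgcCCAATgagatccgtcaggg
Cdh20: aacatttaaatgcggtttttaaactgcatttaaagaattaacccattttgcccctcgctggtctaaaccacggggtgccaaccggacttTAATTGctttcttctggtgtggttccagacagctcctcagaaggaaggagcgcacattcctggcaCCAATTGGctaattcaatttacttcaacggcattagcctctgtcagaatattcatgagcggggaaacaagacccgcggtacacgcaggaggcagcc
Cdh6: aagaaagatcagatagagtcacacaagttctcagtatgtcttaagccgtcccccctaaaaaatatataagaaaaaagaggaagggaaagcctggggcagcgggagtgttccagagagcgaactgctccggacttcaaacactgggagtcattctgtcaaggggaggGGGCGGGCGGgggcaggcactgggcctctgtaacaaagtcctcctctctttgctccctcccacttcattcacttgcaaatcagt
The Cdh8 window held 1 CCAAT and 1 GGGCGG. The Cdh20 window held 1 TAATTG and 2 copies of CCAAT, on opposite strands, that overlap each other. The Cdh6 window held 2 overlapping copies of GGGCGG and none of the other motifs. Of 32851 windows of the same length in the table, 33.9% held CCAAT, 32.7% GGGCGG, 17.2% CAGGTG and 7.17% TAATTG, so the shared letters are common ones and describe these windows only.

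The make-up of the cadherin transcripts differed between tissues more than their sum did. The sum averaged 131 ± 20 FPKM in dB, 119 ± 25 in vB, 142 ± 22 in FNP, 136 ± 26 in MNP, 162 ± 26 in MXP and 131 ± 26 in limb (SD). Cdh2 made up 55.1% of it in dB and 57.0% in vB, against 16.5% in FNP, 19.0% in MNP, 14.6% in MXP and 13.5% in limb. Cdh11 made up 25.1% in dB and 21.5% in vB, against 55.5% in FNP, 60.6% in MNP, 63.9% in MXP and 59.5% in limb. Cdh2 was thus the largest share in both brain tissues and Cdh11 in the other 4. Type I genes took 62.6% ± 2.0 of the sum in dB and 64.5% ± 8.0 in vB, against 30.8% to 38.5% in the other tissues. Cdh3 had facial means of 7.94% to 9.98% of the sum, against 19.5% ± 1.6 in limb.

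**Figure D1:**
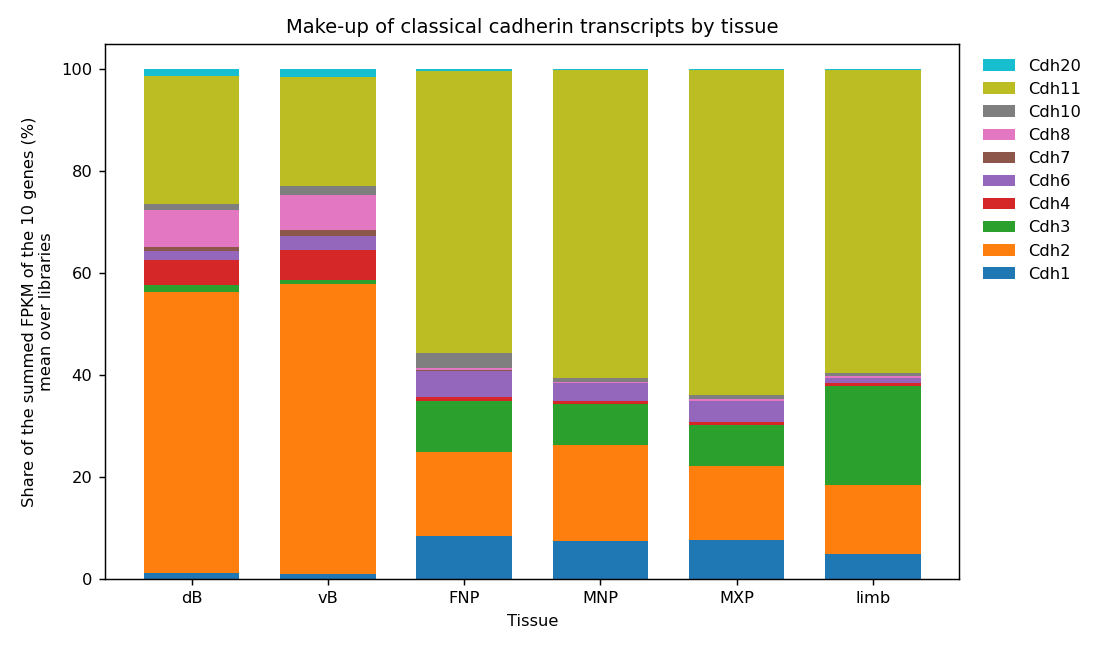
Stacked bars give each gene's mean share, in percent, of the summed FPKM of the 10 genes in each tissue (6 libraries each, MXP 5). The Cdh2 segment fills 55.1% and 57.0% of the dB and vB bars, and the Cdh11 segment fills 55.5% to 63.9% of the others.

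In the category contrasts 9 of the 10 genes were called at least once, against 15% of all 13934 genes tested. Calls required an adjusted p below 0.05 together with a change of 1 or more in log2(FPKM + 1), a fold of 2 on that scale. In neural against facial tissue 4 genes were higher (Cdh2, Cdh4, Cdh8, Cdh20) and 3 lower (Cdh1, Cdh3, Cdh11), against 11.3% of tested genes called, 6.64% higher and 4.64% lower. In neural against limb tissue 5 were higher (the same 4 and Cdh7) and the same 3 lower, against 12.4% called, 8.05% higher and 4.36% lower. In facial against limb tissue 1 was higher (Cdh6) and 1 lower (Cdh3), against 2.62% called, 1.51% higher and 1.11% lower. The median difference of the 10 genes was 0.49 neural against facial, 0.90 neural against limb and 0.19 facial against limb, with medians over all tested genes of -0.02, -0.01 and 0.02. All 10 genes passed the filter on low values, although Cdh7, Cdh8 and Cdh20 passed it only through the brain tissues in which they were higher, so that a difference was built into their passing. The brain pairs had a background of 9.62% (dB against FNP), 11.3% (dB against MNP), 11% (dB against MXP) and 11.7% (dB against limb) of tested genes called. For vB it was 12.1% against FNP, 13.4% against MNP, 13.6% against MXP and 13.6% against limb. Pairwise, all 10 were called in at least 1 of 15 pairs of tissues, against 21.3% of tested genes. Cdh3 was called in 10 pairs and 6 genes (Cdh1, Cdh2, Cdh4, Cdh8, Cdh11, Cdh20) in 8 pairs each. Of all tested genes 7.1% were called in at least 8 pairs. For those 6 genes the pairs were dB or vB against each facial tissue and limb, so they repeat the neural contrasts.

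**Figure D2:**
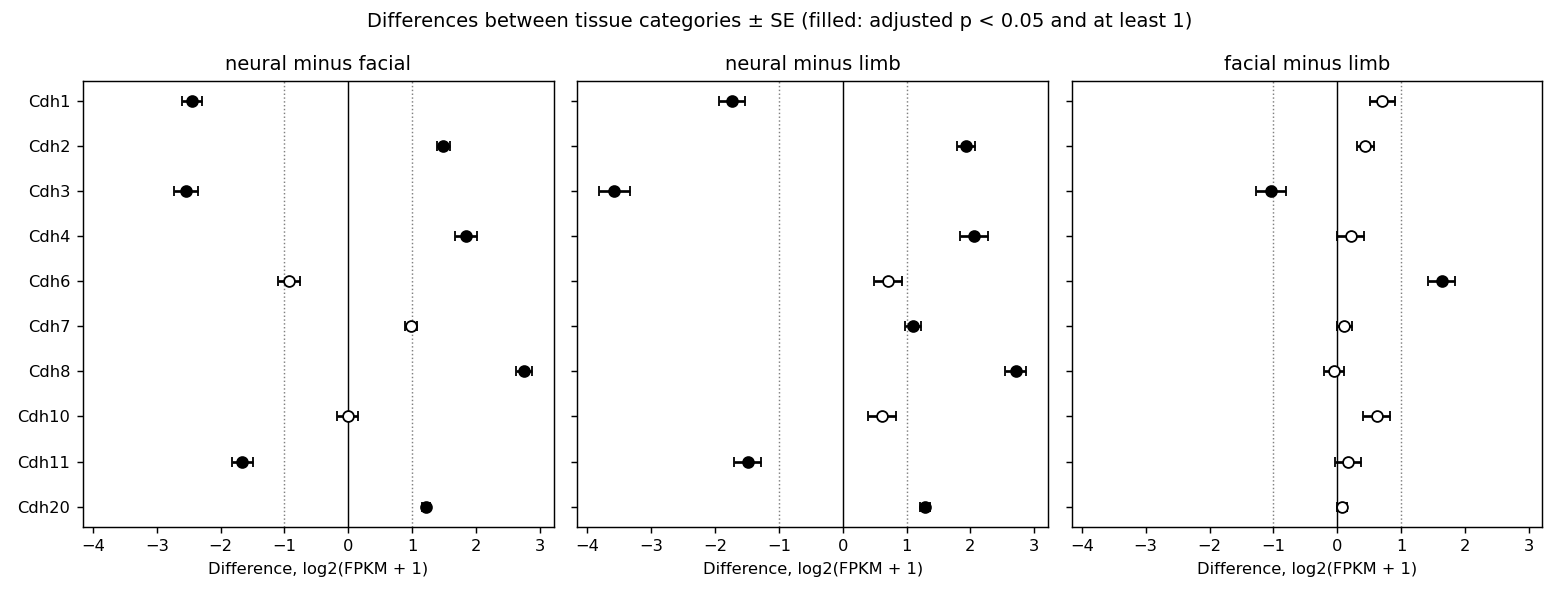
Points give each gene's difference in log2(FPKM + 1) for the 3 contrasts between categories, bars give the SE, and filled points passed both thresholds (dotted lines at 1 and -1). Cdh1, Cdh3 and Cdh11 sit to the left in both neural contrasts and Cdh2, Cdh4 and Cdh8 to the right, while facial minus limb has filled points for Cdh3 and Cdh6 alone.

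Depth and cell content varied between libraries. The coverage that went with 1 FPKM was 2.70 to 5.51, and 11742 to 12955 genes reached 1 FPKM. Library 4 had the fewest such genes in every tissue that had one, with 11742 in limb and 11894 in vB. MNP, vB and limb library 4 shared a sequencing run. Limb library 4 was the lowest limb library for Cdh2, Cdh3, Cdh4, Cdh6, Cdh7, Cdh8, Cdh10 and Cdh11. The tissue labels matched their neural and epithelial markers: 7 of 8 neural progenitor genes were called higher in neural than in facial and in limb tissue, and all 10 surface epithelium genes lower in both. Mesenchyme markers separated less. Of 10, 8 were lower in neural than in facial tissue, and 6 were lower, 1 higher and 3 not called against limb. All 10 reached 1 FPKM in every dB library. Within vB, libraries 1, 4 and 5 had mean log2(FPKM + 1) of mesenchyme markers of 4.25, 4.13 and 4.81, against 2.44, 1.67 and 0.78 in libraries 2, 3 and 6. FNP libraries 4 and 5 had neural progenitor means of 4.83 and 4.55, against 2.77 to 3.25 in the other 4. Without vB libraries 1, 4 and 5 every neural call of Cdh1, Cdh2, Cdh3, Cdh4, Cdh8, Cdh11 and Cdh20 remained. Neural minus facial was then -2.69 for Cdh1, -2.86 for Cdh3, 2.12 for Cdh4 and 1.26 for Cdh20, and Cdh7 gained a call (1.18). These vB libraries were picked with earlier results known. Leaving them out widened each of these differences, so it gives no independent check of the calls. In bulk tissue, fewer cells of a type and less RNA per cell cannot be told apart.

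**Figure D3:**
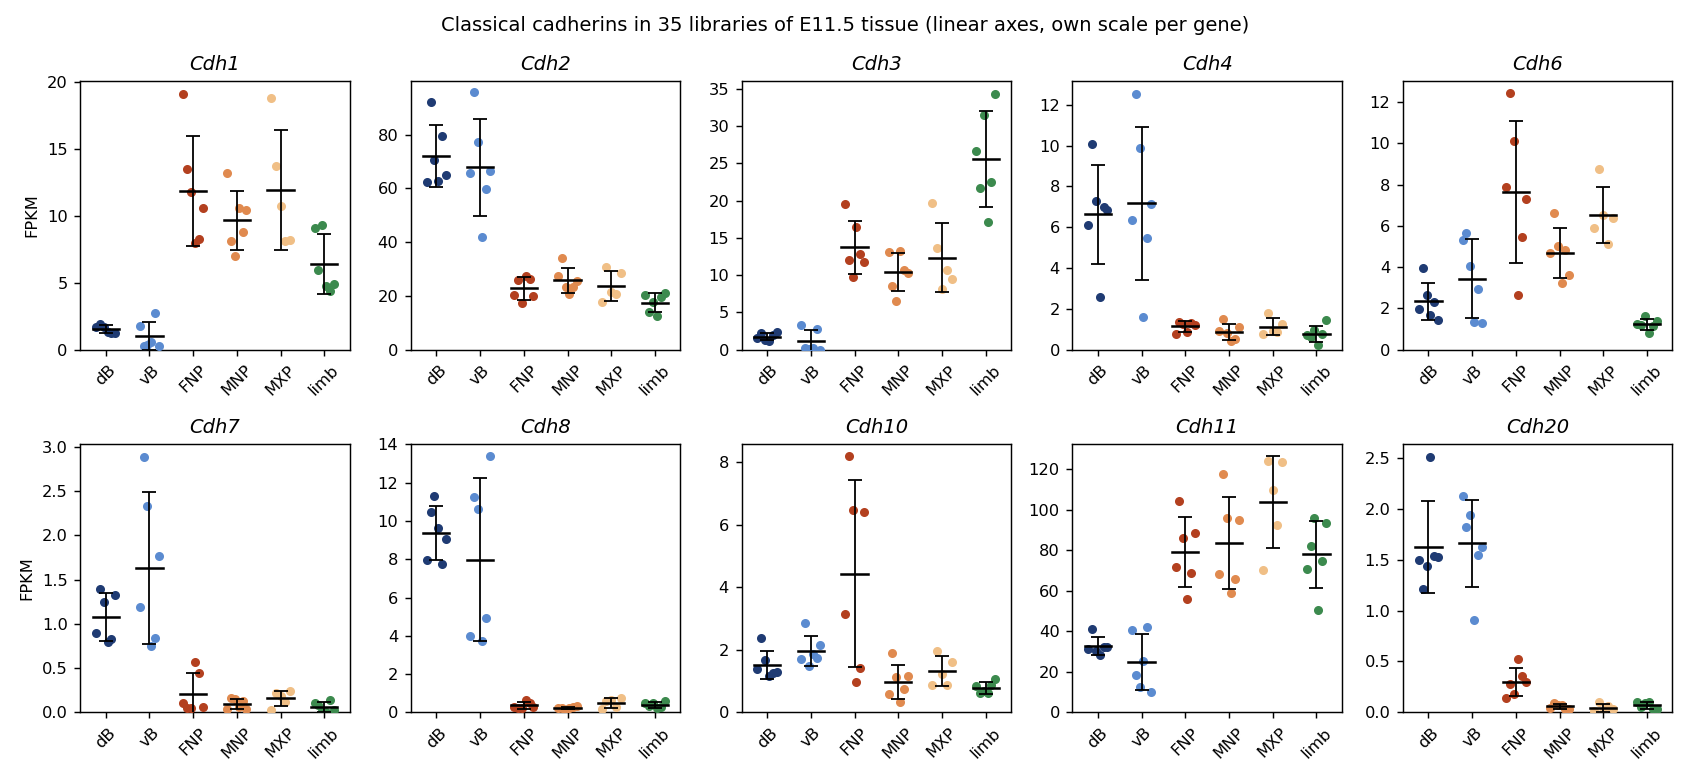
Each point is 1 library, the long bar is the tissue mean and the whiskers are the SD, in FPKM on a linear axis that differs between genes. Cdh2, Cdh4, Cdh7, Cdh8 and Cdh20 are high in dB and vB, Cdh1 and Cdh11 in the face and limb, Cdh3 in limb, and Cdh10 in 4 of the 6 FNP libraries.

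Among the type I genes, Cdh2 (on chromosome 18), the adhesion protein of the neuroepithelium, was the most abundant cadherin of the brain and was also present in the face and limb. It ranged from 42.0 through a median of 66.0 to 95.7 FPKM in the 12 neural libraries, against 17.2, 23.4 and 34.2 FPKM in the 17 facial libraries and 12.5, 18.7 and 21.0 FPKM in the 6 limb libraries. No neural library overlapped a facial or limb one. The mean of 69.9 ± 15 FPKM in neural tissue was 2.90 times the facial mean of 24.2 ± 4.7 FPKM (log2 difference 1.49 ± 0.11 SE, adjusted p = 9.5e-14) and 3.99 times the limb mean of 17.5 ± 3.5 FPKM (1.93 ± 0.14, adjusted p = 2.7e-13). In order of means the tissues ran dB, vB, MNP, MXP, FNP and limb. The step from vB to MNP was called (1.34, adjusted p = 3.4e-08), and no other neighbours were (adjusted p of 0.16 to 1). With vB libraries 1, 4 and 5 left out the neural against facial difference was 1.62.

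Cdh4, which in chick and mouse is expressed in parts of the developing brain and eye, followed the same tissues at a lower level. It had a lowest value of 1.62, a median of 6.91 and a highest value of 12.5 FPKM in neural tissue, against 0.424, 0.907 and 1.80 FPKM in facial tissue and 0.214, 0.737 and 1.44 FPKM in limb. Only vB library 4, the lowest, fell inside the facial range. The neural mean was 6.62 times the facial one (1.85 ± 0.17, adjusted p = 3e-11) and 8.83 times the limb one (2.06 ± 0.22, adjusted p = 2.2e-09). Both brain tissues were called above all 4 others, and no neighbours within the brain or within the 4 others were called (adjusted p of 0.94 to 1). In replicates 4 to 6 alone vB against MXP was not called (1.33, adjusted p = 0.055).

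Cdh1, the main epithelial adhesion protein, was low in the brain and high in the face. It ranged from 0.300 through 1.29 to 2.78 FPKM in neural tissue, against 6.97, 10.6 and 19.1 FPKM in facial tissue and 4.38, 5.43 and 9.33 FPKM in limb. Neural libraries did not overlap either group. The neural mean was 8.70 times lower than the facial one (neural minus facial -2.44 ± 0.16, adjusted p = 6.3e-15) and 5.02 times lower than the limb one (-1.73 ± 0.21, adjusted p = 1.9e-08). Facial tissue exceeded limb by 0.71 ± 0.20 (adjusted p = 0.013), short of the fold threshold. The tissues ran MXP, FNP, MNP, limb, dB and vB by mean, and the one called step between neighbours was that between dB and limb (dB minus limb -1.51, adjusted p = 5.1e-06).

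The brain level of Cdh1 moved with epithelial markers. In vB it was 1.79 and 2.78 FPKM in libraries 1 and 5, whose surface epithelium markers had mean log2(FPKM + 1) of 2.04 and 2.09. It was 0.305, 0.326, 0.616 and 0.300 FPKM in libraries 2, 3, 4 and 6, with marker means of 0.46, 0.36, 0.59 and 0.33. In dB, Cdh1 was 1.24 to 1.95 FPKM with marker means of 1.33 to 1.71. The summed FPKM of the 10 markers was 19.0 to 26.3 in dB and 3.06 to 48.0 in vB, against 147 to 292 in FNP, 167 to 193 in MNP, 142 to 305 in MXP and 118 to 207 in limb. The part of the epithelium share in the Cdh1 differences was not tested.

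Cdh3, found mainly in basal and ectodermal epithelium, shared the low brain level of Cdh1 but had its highest level in limb. It ranged from 0.0108 through 1.47 to 3.30 FPKM in neural tissue, against 6.57, 11.8 and 19.7 FPKM in facial tissue and 17.1, 24.6 and 34.3 FPKM in limb. Neural libraries stood apart from all others, while 2 of the facial libraries, FNP 1 and MXP 1, lay above the lowest 1 of limb. The neural mean was 8.45 times lower than the facial one (neural minus facial -2.55 ± 0.18, adjusted p = 1.1e-13) and 17.8 times lower than the limb one (-3.58 ± 0.24, adjusted p = 4e-14). These neural differences were called in every alternative run for them. The facial mean was 0.474 of the limb mean (facial minus limb -1.03 ± 0.23, adjusted p = 0.0017), and by tissue MNP (-1.22, adjusted p = 0.0035) and MXP (-1.02, adjusted p = 0.02) were called below limb, in pairs where 2.71% and 3.34% of tested genes were called, and FNP was not (-0.85, adjusted p = 0.04). That call lay at the fold threshold: it was lost in replicates 1 to 3 alone (-1.11, adjusted p = 0.064), in replicates 4 to 6 alone (-0.97, adjusted p = 0.19), and without limb replicate 3 (-0.97), limb replicate 6 (-0.94), MNP replicate 3 (-0.99) or MXP replicate 3 (-0.99). The calls of MNP and of MXP against limb were also lost in both sets of replicates, with adjusted p of 0.075 and 0.44 for MNP and 0.27 and 0.39 for MXP.

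Cdh3 and Cdh1 lie 46.1 kb apart on chromosome 8, with 1 annotated protein-coding gene between them, and both are epithelial. Their ratio within a library nevertheless differed between face and limb. Cdh3 over Cdh1 ranged from 0.758 to 2.08 in facial libraries, with a median of 1.05, against 2.93 to 6.96 in limb, with a median of 3.62. The ranges did not overlap, nor did they in replicates 1 to 3 (0.758 to 1.06 facial, 2.93 to 3.65 limb) or in replicates 4 to 6 (0.987 to 2.08 facial, 3.59 to 6.96 limb). This ratio was formed after the values were seen and was not tested. Surface epithelium markers had mean log2(FPKM + 1) of 3.53 to 4.67 in the face and 3.41 to 4.09 in limb.

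**Figure D4:**
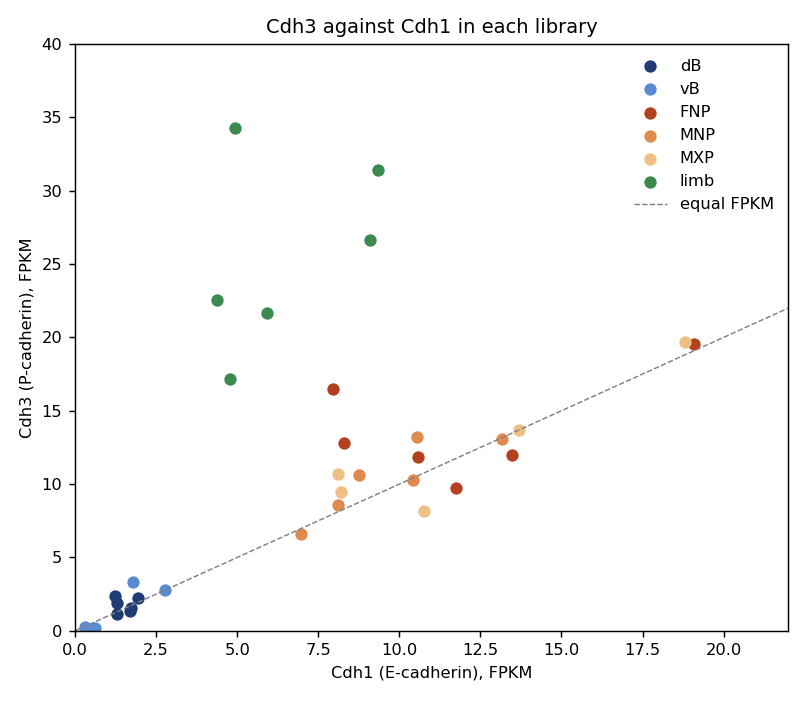
Each point is 1 library, with Cdh1 in FPKM on the horizontal axis, Cdh3 in FPKM on the vertical axis, colours for tissues and a dashed line of equal FPKM. Facial points lie near the line, at ratios of 0.758 to 2.08, and the 6 limb points lie above it, at 2.93 to 6.96.

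Among the type II genes, Cdh8, expressed in subdivisions of the developing forebrain, had means under 1 FPKM in every tissue outside the brain and entered the test only through its brain levels. It ranged from 3.71 through 9.34 to 13.4 FPKM in neural tissue, against 0.154, 0.273 and 0.778 FPKM in facial tissue and 0.212, 0.411 and 0.578 FPKM in limb. No neural library came near the others. The neural mean of 8.66 ± 3.1 FPKM was 24.3 times the facial mean of 0.357 ± 0.20 FPKM (2.76 ± 0.13, adjusted p = 7.9e-19) and 21.6 times the limb mean of 0.401 ± 0.15 FPKM (2.71 ± 0.17, adjusted p = 2.6e-15). Within vB it was 11.2, 10.6 and 13.4 FPKM in libraries 2, 3 and 6, and 3.98, 3.71 and 4.93 FPKM in libraries 1, 4 and 5, the ones with more mesenchyme marker RNA. Without those 3 libraries the neural against facial difference was 3.08. In dB, Cdh8 was 7.73 to 11.3 FPKM with mesenchyme marker means of 3.90 to 4.70. Erythroid markers summed to 45550 FPKM in vB library 4, against 4666 to 20964 FPKM in the other vB libraries. The part of cell content in these Cdh8 values was not tested.

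Cdh7 and Cdh20 were low-abundance brain genes. Cdh20 ranged from 0.903 through 1.54 to 2.51 FPKM in neural tissue, against 0, 0.0723 and 0.526 FPKM in facial tissue and 0.0295, 0.0740 and 0.106 FPKM in limb. The neural groups did not overlap the others, and the neural mean was 11.9 times the facial one (1.21 ± 0.06, adjusted p = 2.4e-17) and 23.6 times the limb one (1.29 ± 0.08, adjusted p = 1.1e-14). Cdh7, known in chick from neural crest and spinal cord, ranged from 0.745 through 1.22 to 2.89 FPKM in neural tissue, against 0.0249, 0.123 and 0.565 FPKM in facial tissue and 0, 0.0569 and 0.142 FPKM in limb. It too did not overlap. Its neural mean was 8.64 times the facial one, but the difference on the log2(FPKM + 1) scale, which understates changes of low genes, was 0.99 ± 0.09 (adjusted p = 4.2e-11) and missed the fold threshold. Against limb it was called (1.10 ± 0.12, adjusted p = 2.9e-09). With 0.1 added in place of 1, neural against facial was 2.55 and was called, whereas quantile normalization (0.93) and replicates 4 to 6 alone (0.94) ended the call against limb.

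The facial values of both genes were highest in FNP libraries 4 and 5, those with the most neural progenitor RNA among facial libraries. Cdh20 was 0.526 and 0.361 FPKM there, against 0.145 to 0.296 FPKM in the other 4 FNP libraries. Cdh7 was 0.565 and 0.448 FPKM there, against 0.0449 to 0.104 FPKM in the other 4. Even without them Cdh20 was higher in FNP than in MNP or MXP by range, since its highest value was 0.0913 FPKM in MNP and 0.105 FPKM in MXP. Neither pair was called. The part of neural RNA in these FNP values was not tested.

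Cdh11, which marks mesenchymal cells and their skeletal derivatives, was the most abundant cadherin of the face and limb. It ranged from 10.2 through 31.0 to 42.2 FPKM in neural tissue, against 56.3, 88.5 and 124 FPKM in facial tissue and 50.8, 78.4 and 96.2 FPKM in limb. The neural libraries lay below every facial and limb library. The neural mean of 28.8 ± 11 FPKM was 3.06 times lower than the facial mean of 88.1 ± 22 FPKM (neural minus facial -1.66 ± 0.16, adjusted p = 1e-10) and 2.71 times lower than the limb mean of 78.0 ± 17 FPKM (-1.49 ± 0.21, adjusted p = 4.9e-07). The tissues ran MXP, MNP, FNP, limb, dB and vB, with a called step only between dB and limb (dB minus limb -1.21, adjusted p = 0.00015), which was not called in replicates 4 to 6 alone (-1.17, adjusted p = 0.055).

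In the brain Cdh11 moved with the mesenchyme markers. It was 18.4, 12.7 and 10.2 FPKM in vB libraries 2, 3 and 6, and 40.5, 25.3 and 42.2 FPKM in libraries 1, 4 and 5, with the marker means given above. In dB it was 28.4 to 41.1 FPKM with marker means of 3.90 to 4.70. Across tissues the summed FPKM of the 10 mesenchyme markers was 233 to 441 in dB and 7.83 to 390 in vB, against 642 to 970 in FNP, 714 to 1243 in MNP, 725 to 1488 in MXP and 504.9 to 796 in limb. In vB library 6 these markers summed to 7.83 FPKM and Cdh11 was 10.2 FPKM. Without vB libraries 1, 4 and 5 the neural minus facial difference was -1.99. The part of mesenchyme RNA in the Cdh11 differences was not tested.

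**Figure D5:**
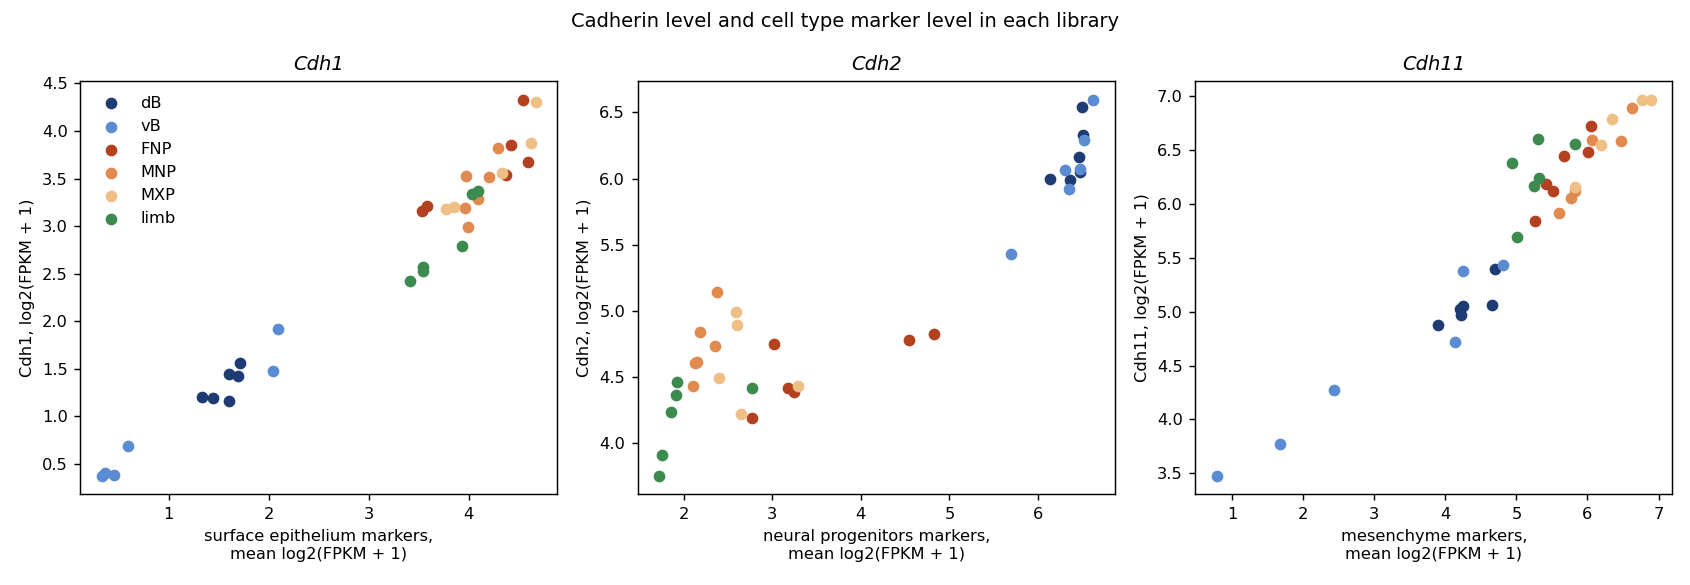
Each point is 1 library, placed by the mean log2(FPKM + 1) of surface epithelium, neural progenitor or mesenchyme markers on the horizontal axis and by log2(FPKM + 1) of Cdh1, Cdh2 or Cdh11 on the vertical axis. Cdh1 and Cdh11 are higher in libraries with higher markers, with vB spread out at the low end, while the 2 FNP points at neural progenitor means of 4.83 and 4.55 have Cdh2 within the facial range.

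Cdh6, which in mouse is expressed in the neural folds, nascent crest and kidney, was the gene that set the face above limb. It ranged from 1.30 through 2.49 to 5.68 FPKM in neural tissue, against 2.65, 5.89 and 12.4 FPKM in facial tissue and 0.826, 1.23 and 1.65 FPKM in limb. Facial and limb libraries did not overlap, and the facial mean was 5.06 times the limb one (1.64 ± 0.21, adjusted p = 3.8e-07). The call held in replicates 1 to 3 (1.80) and in replicates 4 to 6 (1.45), and FNP (1.84), MNP (1.32) and MXP (1.74) were each called above limb. Neural tissue lay between, 0.93 ± 0.17 below facial tissue (adjusted p = 1.5e-05) and 0.71 ± 0.22 above limb (adjusted p = 0.0086), both short of the fold threshold. By tissue, dB was called lower than FNP (-1.30, adjusted p = 0.00012) and than MXP (-1.20, adjusted p = 0.00052), whereas vB against FNP was -0.98 (adjusted p = 0.0022) and was not called. Without FNP libraries 4 and 5 neural minus facial was -1.05 and was called. By tissue the order was FNP, MXP, MNP, vB, dB and limb, and no neighbours in it were called.

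Cdh10, a type II cadherin best known from brain neurons and vessels of the blood-brain barrier, differed within the face. It was 3.14, 8.19, 6.47, 0.983, 1.42 and 6.40 FPKM in FNP libraries 1 to 6, against 0.593, 1.90, 1.12, 0.329, 0.747 and 1.16 FPKM in MNP libraries 1 to 6. In MXP libraries 1, 2, 3, 5 and 6 it was 0.867, 1.95, 1.24, 0.883 and 1.63 FPKM, and in limb it ranged from 0.606 to 1.08 FPKM with a median of 0.757. FNP libraries 1, 2, 3 and 6 lay above every MNP, MXP and limb library, and libraries 4 and 5 lay within the others' range. Set against the library of the same number, FNP was higher than MNP in 6 of 6, than MXP in 5 of 5 and than limb in 6 of 6. That comparison is a description: it was not tested or set against other genes. Same-numbered libraries did not all share a sequencing run. FNP was called above MNP (1.28 ± 0.25, adjusted p = 0.00058), MXP (1.03 ± 0.27, adjusted p = 0.012) and limb (1.39 ± 0.25, adjusted p = 0.00013), with 2.68%, 2.28% and 4.21% of tested genes called in those pairs. It was the only member called in the first 2 of these.

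The Cdh10 calls did not hold in replicates 4 to 6. In replicates 1 to 3 alone FNP exceeded MNP by 1.62, MXP by 1.51 and limb by 1.94, all called. In replicates 4 to 6 alone the differences were 0.94 (adjusted p = 0.36), 0.56 (adjusted p = 1) and 0.84 (adjusted p = 0.38). With FNP libraries 4 and 5 left out, a choice made after seeing the data, they were 1.82, 1.57 and 1.93, all called. FNP libraries 4 and 5 had surface epithelium marker means of 3.53 and 3.58, against 4.37 to 4.59 in the other FNP libraries. Their neural progenitor means were higher, as given above. The part of cell content in the Cdh10 differences was not tested. The call against MXP was also lost without FNP replicate 2 (0.83), FNP replicate 3 (0.89), FNP replicate 6 (0.90), MXP replicate 1 (0.96) or MXP replicate 5 (0.96). In the brain Cdh10 ranged from 1.17 to 2.85 FPKM, and neural against facial tissue differed by -0.01 ± 0.17 (adjusted p = 0.97).

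Cdh10 and Cdh6 also varied together within tissues. In FNP, Cdh6 was 7.91, 12.4, 10.1, 2.65, 5.46 and 7.29 FPKM in libraries 1 to 6, so libraries 4 and 5 were the lowest for both genes. Over the 35 libraries the deviations from tissue means had a Pearson r of 0.65 for Cdh6 and Cdh10, 0.74 for Cdh1 and Cdh3, 0.78 for Cdh7 and Cdh8 and 0.77 for Cdh2 and Cdh4. These pairs were picked from all pairs of members, where r ran from -0.53 (Cdh1 and Cdh7) to 0.78. Cdh2 and Cdh7 (0.66) and Cdh4 and Cdh7 (0.63) had similar values. All these r values are descriptions over libraries that differ in depth and cell content.

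No member was called between dB and vB, where 1.39% of tested genes were called, or between MNP and MXP, where 1.03% were. In limma none of the 10 had an adjusted p under 0.05 in either pair, and 2 (Cdh3 and Cdh11, dB against vB) and 0 had an unadjusted p under 0.05. The largest dB minus vB differences were 0.65 ± 0.28 for Cdh3 and 0.55 ± 0.25 for Cdh11 (adjusted p = 0.22 and 0.23). Cdh3 was called with 0.1 in place of 1 FPKM added (1.77, adjusted p = 0.042). Without vB libraries 1, 4 and 5 the differences were 1.29 for Cdh3 (adjusted p = 9e-05) and 1.22 for Cdh11 (adjusted p = 8.4e-05), both called, as were 5.32% of the 14050 genes then tested. Cdh8 changed sign, with 0.34 in all libraries and -0.31 without the 3 (adjusted p = 0.39 and 0.08). The libraries left out are those with more mesenchyme marker RNA and were picked with earlier results known, so these calls are given as a description.

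Most members had 1 main transcript. Cdh1, Cdh2 and Cdh20 had a single transcript in the tables, and 1 transcript took 99.8% of Cdh11, 99.6% of Cdh4, 99.2% of Cdh6 and 95.5% of Cdh10. Of the transcripts of Cdh3, which are 3995 and 3992 bases long, the longer took 78.2% in dB, 67.8% in vB, 81.3% in FNP, 80.5% in MNP, 81.9% in MXP and 82.3% in limb. Of the 4 transcripts of Cdh8, that of 3158 bases took 53.8% in dB and 53.5% in vB, and that of 3808 bases 29.2% and 27.2%. The split between transcripts of near-equal length is an estimate and was not tested.

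The genes whose levels followed each member most closely over the 35 libraries, by Pearson r of log2(FPKM + 1) among 13924 other genes, are named here, 3 for each. For Cdh1 they were Esrp1 (0.992), an epithelial splicing regulator, St14 (0.985), a membrane protease, and Ripk4 (0.984), a kinase of keratinocyte differentiation. For Cdh2 they were Celsr2 (0.961), Ptprz1 (0.960) and Fmn2 (0.958), for Cdh4 Lrrn2 (0.985), Celsr2 (0.979) and Apc2 (0.979), and for Cdh3 Plekhg3 (0.970), Tmem119 (0.963) and Epha1 (0.960). Celsr2, a non-classical cadherin of planar cell polarity, appeared for both Cdh2 and Cdh4. For Cdh8 they were the proneural factor Neurog2 (0.981), the neural POU factor Pou3f2 (0.981) and AK018134 (0.980), and for Cdh20 Ptprn2 (0.979), Hspa4l (0.973) and Ildr2 (0.972). For Cdh11 they were Mylip (0.975), Crispld1 (0.974) and the crest and mesenchyme factor Snai2 (0.971). The closest genes to Cdh10 were St6galnac5 (0.935), Hs3st5 (0.933) and Ttc39b (0.905), and those to Cdh6 Ikzf2 (0.879), Cnksr2 (0.871) and Nrip1 (0.852), the lowest values of the 10. For Cdh7 all 3 were listed only by clone names, led by AK036048 (0.979). The points share libraries and fall into 6 tissues.

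Most cytoplasmic partners did not follow the brain members, and Ctnnb1, Ctnna1 and Ctnnd1 were not called in neural against facial tissue. For this and the next lists, 6.64% of all tested genes were higher and 4.64% lower in neural than in facial tissue. Against limb 8.05% were higher and 4.36% lower. Of 10 tested catenins and actin linkers, 3 were higher in neural than in facial and than in limb tissue, and none was lower. The list median was -0.08 neural against facial, with -0.02 over all tested genes. The 3 higher ones were the neuronal alpha-catenin Ctnna2, at 19.1 FPKM in neural, 2.81 in facial and 0.498 in limb tissue (2.38 neural against facial, adjusted p = 6.3e-13), the delta-catenin Ctnnd2 (1.64, adjusted p = 1.7e-12) and the p120 relative Arvcf (1.20, adjusted p = 1.4e-08). Ctnna2 was also called higher in facial than in limb tissue (1.26).

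Of 6 tested cadherins outside the 10, Cdh22 stood above facial tissue (1.84, adjusted p = 5.6e-11) and limb (1.46) in the neural libraries, and the muscle cadherin Cdh15 was lower in neural tissue than in limb (-1.33). Of 5 nectins, immunoglobulin-like partners of adherens junctions, Pvrl4 was lower in neural than in facial tissue (-1.76) and than in limb (-1.36). Of 7 tested desmosome genes 4 were lower in neural than in facial tissue, Dsp (-2.45), Pkp3 (-1.96), Dsg2 (-1.69) and Dsc2 (-1.06), and the same 4 were lower than in limb. Of 9 enzymes that cut cadherins, the proprotein convertases Furin (-1.11) and Pcsk5 (-1.06) were lower in neural than in facial tissue, and Furin (-1.04) than in limb.

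Of 8 tested repressors of Cdh1 transcription, 4 were lower, 1 was higher and 3 were not called in neural against facial tissue, and likewise against limb. Twist1 (-4.02), Twist2 (-3.18), Snai2 (-2.94) and Snai1 (-2.29) were the lower ones in neural against facial tissue, and Zeb1 was higher (1.15, adjusted p = 8.4e-14). Against limb the same 4 were lower in neural tissue, and Zeb2 was higher (2.46), as it was in facial against limb tissue (2.02). Of 6 tested epithelial factors 5 were lower in neural than in facial and than in limb tissue: Trp63 (-3.29 neural against facial), Esrp1 (-2.71), Grhl2 (-2.06), Esrp2 (-2.03) and Grhl3 (-1.85). Several of these genes are also markers of the mesenchyme or surface epithelium lists given above.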

How the data were processed

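The authors deposited, for each library, FPKM values per transcript estimated with Cufflinks, a status and a coverage signal; coverage served here only to describe depth. Per the labels libraries were paired-end, poly(A) RNA, and mm10 is the build. Bowtie2 and DESeq2 also stand in the processing notes of the submitters. Which aligner fed Cufflinks is not given in the sources used here. Without counts, no interval for single values is given. Of 59120 transcripts per table, 65 with a space in the name were left out, and 59055 were used. No estimate of a member had failed.

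FPKM was summed per gene and log2(FPKM + 1) fitted in limma 3.58.1 (R 4.3.3, trend and robust options) over 13934 genes whose mean reached 1 FPKM in any tissue, with 1 mean per tissue. All 15 pairs and 3 category contrasts were Benjamini-Hochberg adjusted over all tested genes per contrast. On simulated data over 13158 genes, for neural against facial, 100 of 100 genes changed by 1.5 were called. The changed genes had a mean log2(FPKM + 1) above 1.5, and the noise was independent between libraries. The simulation therefore does not cover low genes such as Cdh7 and Cdh20, or changes near the threshold. Alternatives were other pseudocounts, filters, scalings, run terms and left-out libraries. Replicates 1 to 3 and 4 to 6 came from different sequencing runs by the deposited names. P-values measure the spread between pooled libraries. Promoters came from RefSeq (GRCm38.p6), positions from GENCODE. All members were named. Tissue pairs named were mainly the highest tissue against the others and neighbours in order. Some further pairs were added, such as dB against MXP for Cdh6. List genes were up to 4 called per list and contrast, more where 5 or fewer were called. The 3 genes with the highest r were named per member. The members and lists were chosen with earlier results of these data known.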

Additional observations from a re-analysis of the deposited data

Results flagged for a closer look

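Of 60 gene and tissue groups, 2 held a library far from the rest of its group, where chance flags about 1 in 20 groups. Cdh11 was 41.1 FPKM in dB replicate 2, with the other 5 dB libraries at 28.4 to 32.5 FPKM. Cdh20 was 2.51 FPKM in dB replicate 4, with the other 5 at 1.21 to 1.54 FPKM.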

How the results depend on the processing

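Over 48 alternatives, 35 of them leaving out 1 library, the counts of called genes kept within 1.5 times of their value except for 2. The count of genes lower in facial than in limb tissue (Cdh3, 1) was 0 with 0.1 added in place of 1, with FPKM rescaled over transcripts of at least 200 bases, and in replicates 1 to 3 or 4 to 6 alone, and ranged from 0 to 1 when 1 library was left out. The count higher in neural tissue than in limb was 3 in place of 5 when a mean of 5 FPKM in some tissue was required, which left Cdh7 and Cdh20 untested. Of 74 results for single genes, differences that were not called changed sign: Cdh8 dB against vB was -0.306 without vB libraries 1, 4 and 5, Cdh8 facial against limb was 0.0675 in replicates 4 to 6 alone, and Cdh10 neural against facial was 0.11 with 0.1 added, 0.0198 with the replicate block, 0.0048 with run as a factor, 0.14 in replicates 4 to 6, 0.0328 without vB libraries 1, 4 and 5, and -0.0906 to 0.0568 when 1 library was left out. In 75 further cases a single gene crossed the threshold in the same direction, among Cdh3, Cdh4, Cdh6, Cdh7, Cdh10, Cdh11 and Cdh20. The cause was not tested. Same-numbered libraries of different tissues had correlated deviations, with r of 0.00777 to 0.698 (median 0.34) over 85 pairs, 78 of them over 0.1, against a median of -0.07 for other numbers. Because not every pair passed 0.1, the main fit held no term for the number. Variation shared by same-numbered libraries therefore stayed in the spread from which the main fit took its p-values. The numbers only partly follow the sequencing runs. The replicate block left the count called between categories at 9 and between pairs at 10, and kept every single-gene call, with Cdh10 FNP against MNP at 1.28 (limma adjusted p = 2.6e-05) and Cdh3 facial against limb at -1.04 (adjusted p = 0.00041). The precision of genes under about 1 FPKM (Cdh7, Cdh20) is limited by depth, which the tables do not give as counts.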
